A study of Mus musculus with 4 samples.

Results

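The histone cluster genes encode the core histones H2A, H2B, H3 and H4 and the linker histone H1. They were taken as the protein-coding genes of the mouse RefSeq annotation whose symbols start with Hist1h to Hist4h or, in current names, with H1f, H2ac, H2bc, H3c or H4c and a digit. This gave 67 of 21887 protein-coding genes, 10 for H1, 17 for H2A, 16 for H2B, 12 for H3 and 12 for H4. All 67 were found under their current names. The data were peak lists from chromatin immunoprecipitation and sequencing of SHP, the small heterodimer partner encoded by Nr0b2. SHP is a nuclear receptor with no DNA-binding domain of its own and is known as a corepressor recruited by other factors. The chromatin came from jejunum and ileum of wild-type C57BL/6 mice and of SHP-knockout mice on the same background, aged 8 to 12 weeks, which had all been fasted for 12 h and then given normal chow for 4 h. For each genotype an immunoprecipitated and an input sample are listed, made from 3 sets of DNA pooled from 3 mice each, and a single peak list per genotype was analysed. How the knockout allele was made is not given in the labels.

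Core histones form the spool on which DNA is wound, and linker H1 binds where DNA enters and leaves it. Most of these genes are replication-dependent: they are short, lack introns, lie in clusters and are transcribed in S phase, when new DNA must be packaged, and their messenger RNAs end in a stem-loop instead of a poly(A) tail. In the intestine, dividing cells are found in the crypts, while most villus cells no longer divide. A few H1 genes, such as H1f0 and H1f10, are expressed outside S phase, and H1f6, H1f7, H1f8, H2ac1 and H2bc1 are known for expression in germ cells.

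SHP peaks at the 67 members lay at H1 and H4 genes and at a single H3 gene, and none lay directly at an H2A or H2B member. A summit, the highest point of a peak, was found within 5 kb of an end of 16 of the 67 members (23.9%, 95% exact interval 14.3 to 35.9), against 26.4% of all protein-coding genes and 6.08% of the 2583 protein-coding genes of at most 2 kb. Of the members, 60 were that short, with a median length over all members of 496 bp. By this count the histone genes as a group did not stand above the whole genome. By type, 6 of 10 H1 genes (60%, interval 26.2 to 87.8), 4 of 12 H4 genes (33.3%, 9.92 to 65.1), 2 of 12 H3 genes (16.7%, 2.09 to 48.4), 2 of 17 H2A genes (11.8%, 1.46 to 36.4) and 2 of 16 H2B genes (12.5%, 1.55 to 38.3) had a summit. The intervals cover counting error only and treat genes as independent, which neighbours that share a peak are not. The intervals of the types overlapped, and no test between types was made.

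The 16 genes were served by 11 distinct peaks, of which 5 served more than 1 member and none more than 3. Of the 16, 9 were the nearest member to a peak: H1f0, H1f2, H1f3, H1f4, H1f10, H4c3, H4c8, H4c12 and H3c6. The other 7, H2ac10, H2ac15, H2bc6, H2bc15, H3c8, H4c6 and H1f6, were counted only because the peak of a neighbour lay within 5 kb. Every H2A and H2B gene in the count belonged to that second set. The farthest of these were H3c8, 4261 bp from the summit at H4c8, H2bc15, 3591 bp from the summit at H4c12, and H4c6, 3464 bp from the summit at H1f3. Just outside the limit lay H3c3 at 5339 bp, H2bc4 at 5953 bp and H2bc3 at 7031 bp.

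How the members' share stood against that of all protein-coding genes depended on the way of counting: it was below within 1 or 2 kb, close within 10 kb, and above within 50 kb or with only the stronger peaks kept. Within 1 kb there were 9 of 67 members against 20.7% of all genes, within 2 kb 11 against 23.1%, within 10 kb 21 against 30.5%, and within 50 kb 43 of 67 against 48.2%. When each summit was given to its nearest gene only, 9 of 67 members remained against 21.0% of all genes. Any base of a peak within 5 kb gave 17 of 67 against 26.9%, and a summit inside the gene or within 5 kb gave 16 of 67 against 28.3%. With peaks limited to a −log10 p of at least the list's median, 15 of 67 members had a summit against 14.8% of all genes. With peaks at or above the 75th percentile of the enrichment value, the count was 11 of 67 against 6.89%, and these 11 genes shared 5 peaks, those of H1f4, H3c6, H4c3, H4c8 and H4c12.

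Counting at start sites left out such neighbours, and also H1f10, whose own summit lay 581 bp past its start. RefSeq promoter entries of the same assembly, GRCm38.p6, gave the start and strand of 62 of the 67 members. A summit lay within 500 bp of the start of 8 of these 62 (12.9%, 95% exact interval 5.74 to 23.9), against 20.5% of 17492 protein-coding genes and 3.56% of the 2164 that were at most 2 kb long. They were 4 of 10 H1 genes, 3 of 11 H4 genes, 1 of 10 H3 genes, 0 of 17 H2A genes and 0 of 14 H2B genes. For H2A and H2B together, 0 of 31 genes allows a share of up to 11.2% (exact interval). H1 and H4 together had 7 of 21 (33.3%, 14.6 to 57.0). These intervals treat starts as independent. Many H2A and H2B genes, such as H2bc13 and H2ac13, are neighbours whose starts lie close together, so the intervals are too narrow. The grouping, which leaves out H3, was chosen after the counts were seen. This split by type was noticed in the data and was not tested.

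**Figure D1:**
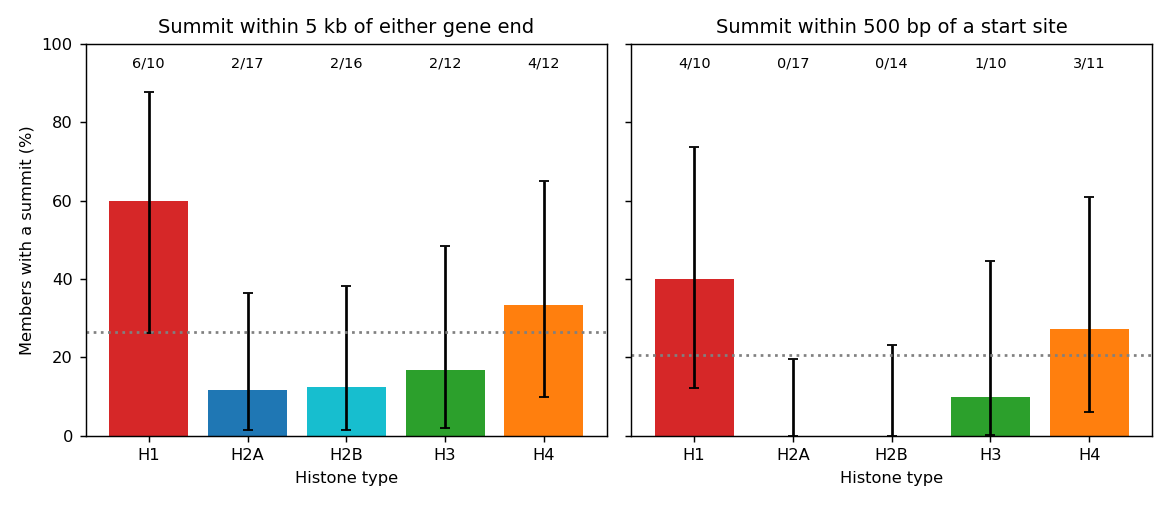
Percentage of histone genes of each type with a wild-type SHP summit within 5 kb of either gene end (left) and within 500 bp of an annotated start site (right), with 95% exact intervals as error bars, counts above the bars and the share over all protein-coding genes (26.4% and 20.5%) as dotted lines. Among the members, H1 genes stood highest in both panels, with 6 of 10 and 4 of 10, and no H2A or H2B member had a summit at its start.

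The peaks were unevenly spread over the clusters. With members up to 100 kb apart joined into a block, chromosome 13 held 4 blocks. The third block, of 29 members over 233 kb (chr13:23531044-23764412), carried 7 of the 11 peaks, and 11 of its members had a summit within 5 kb. The first block, of 17 members over 118 kb (chr13:21715711-21833475), carried 1 peak, at H4c12, which served 3 members. The second block (chr13:22035122-22043658) and the fourth (chr13:23933725-23934913) carried none, and their 5 and 2 members lay at least 284637 and 194022 bp from a summit. The 10 members on chromosome 3 (chr3:96219885-96270192), which include H2bc21, H4c14 and the duplicated pair H3c14 and H3c15, also had none, and the nearest summit was 115332 bp outside that block. The lone genes H1f10 on chromosome 6 and H1f0 on chromosome 15 had peaks, and H1f8 and H1f7 had none within 136272 and 110393 bp.

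**Figure D2:**
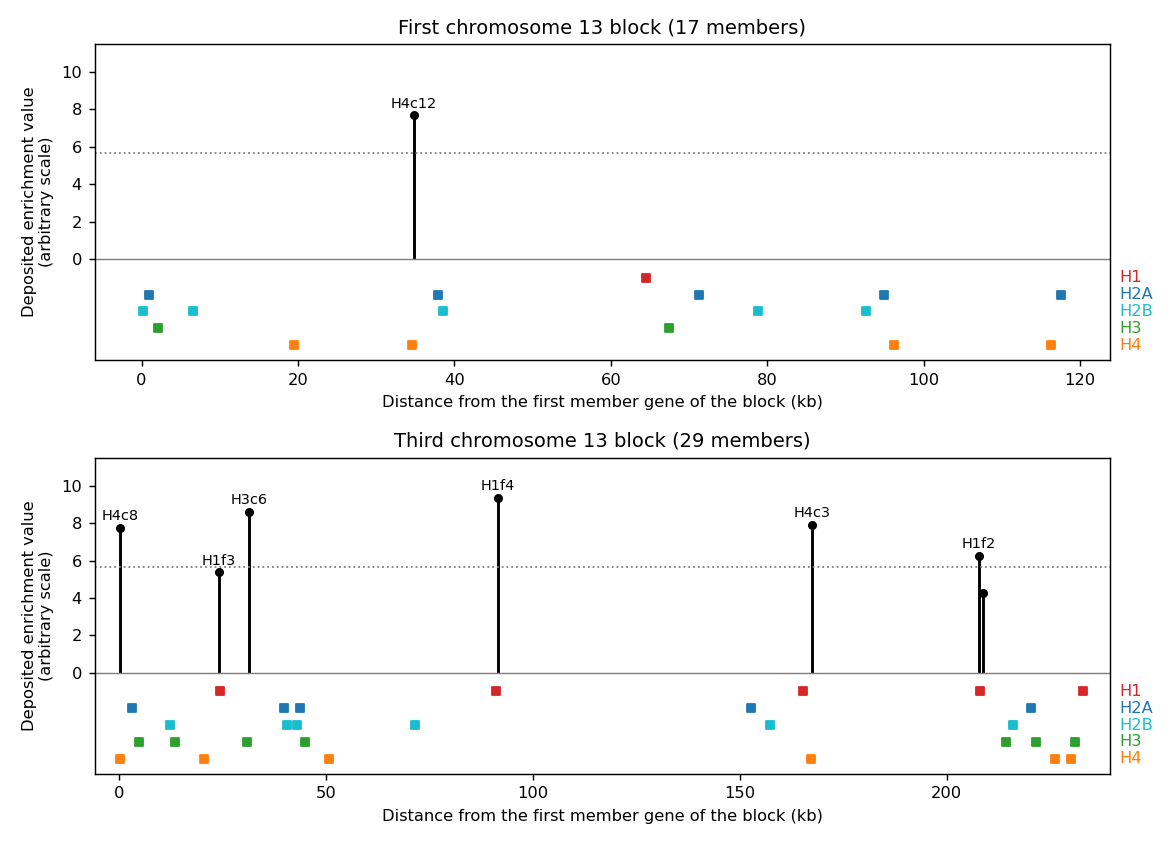
Histone genes (squares, by type, at the middle of each gene) and wild-type SHP peaks (black stems at the summit, height as the deposited enrichment value) in the first and the third of the chromosome 13 blocks, by distance in kb from the first member of the block, with the median of all peaks (5.65) as a dotted line. Labels name the member nearest to the summit, and the unlabelled stem is the second peak of H1f2. Stems stand over H1 and H4 squares and over a single H3 square, H3c6.

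H1f4, which encodes the linker histone H1.4, had the highest enrichment value of any member, a deposited measure of peak strength whose scale is not stated. Its peak at chr13:23621871-23622690 had an enrichment value of 9.36, rank 30 of 5775, and a −log10 p of 31.6. The summit lay 107 bp past the start site, inside the gene. The gene H2bc6, annotated over 37455 bp, was reached by the same peak at 1327 bp. H1f2, which encodes H1.2, was the only cluster gene with a pair of peaks. The peak over its start (chr13:23738717-23739005) had its summit at 41 bp and an enrichment value of 6.27, rank 1746. The other peak (chr13:23739110-23740106) lay 172 bp beyond an end of the gene at the summit and was weaker, with 4.26, rank 5173. H1f3, which encodes H1.3, had a peak at chr13:23554930-23555267 with the summit 100 bp past the start. Its value of 5.39, rank 3472, was below the median of the list, 5.65. The remaining cluster H1 genes differed from these. H1f6, the testis form, was reached only by the H4c3 peak, at 1888 bp, and H1f1 and H1f5 lay 23965 and 29347 bp from a summit.

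Promoters of 4 cluster H1 genes are shown because 3 with a peak and H1f5, which has none, all carry the H1 element and the CCAAT box letters. The 250 bases before the start site are given as RefSeq has them for GRCm38.p6, written 5′ to 3′ along the gene. Capitals mark 4 motifs on either strand. CCAAT gives the letters of the CCAAT box. TATAAA gives those of the TATA box. AAACACA belongs to an element known from H1 genes. GGTCCG belongs to the core of an element known from H4 genes.
H1f4, chr13:23622559-23622808, minus strand: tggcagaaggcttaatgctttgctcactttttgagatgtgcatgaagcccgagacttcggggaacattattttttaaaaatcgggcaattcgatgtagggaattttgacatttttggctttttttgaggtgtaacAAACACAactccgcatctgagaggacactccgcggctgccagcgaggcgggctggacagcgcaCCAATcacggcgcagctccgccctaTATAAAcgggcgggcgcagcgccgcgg
H1f2, chr13:23738557-23738806, plus strand: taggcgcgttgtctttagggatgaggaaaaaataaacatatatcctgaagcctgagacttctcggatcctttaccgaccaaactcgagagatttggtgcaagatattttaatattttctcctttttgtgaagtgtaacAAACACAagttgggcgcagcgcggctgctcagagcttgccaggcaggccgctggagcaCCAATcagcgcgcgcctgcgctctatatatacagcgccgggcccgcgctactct
H1f3, chr13:23554782-23555031, plus strand: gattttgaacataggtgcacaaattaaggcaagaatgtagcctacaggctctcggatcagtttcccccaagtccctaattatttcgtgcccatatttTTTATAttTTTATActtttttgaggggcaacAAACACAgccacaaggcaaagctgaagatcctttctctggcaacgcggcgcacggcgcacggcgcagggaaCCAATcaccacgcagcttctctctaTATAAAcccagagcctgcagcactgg
H1f5, chr13:21780626-21780875, minus strand: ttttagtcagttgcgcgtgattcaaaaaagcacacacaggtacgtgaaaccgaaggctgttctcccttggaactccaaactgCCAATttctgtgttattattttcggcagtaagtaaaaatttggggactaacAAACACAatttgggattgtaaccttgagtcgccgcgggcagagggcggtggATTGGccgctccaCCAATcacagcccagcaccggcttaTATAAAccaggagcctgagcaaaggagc

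The H1 element letters, with the CCAAT box letters downstream of them, stood in all 4 of these sequences, and H1f5 had no peak. TATAAA was present in H1f4, H1f3 and H1f5 and not in H1f2. Outside the clusters, the window of H1f0 held none of the 4 motifs and that of H1f10 held GGTCCG only, although both genes had a peak. Over the 10 H1 promoters AAACACA was present in 5, against 5.46% of 21263 promoter windows of protein-coding genes cut to the same 250 bases. The peaks covered the last 132 bases of this stretch at H1f4, 90 at H1f2 and 102 at H1f3. Identity over a global alignment was 60.3% between H1f2 and H1f3, 60.6% between H1f2 and H1f4 and 58.1% between H1f3 and H1f4. Between H1f2 and H1f1, which had no peak, it was 56.6%.

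H1f0 and H1f10, the linker histone genes outside the clusters, had broad peaks. H1f0, which encodes H1.0 and is known for expression in cells that have left the cycle, had a peak of 1774 bp at chr15:79027496-79029269 with an enrichment value of 6.29, rank 1717, and the summit 183 bp past the start. A second peak at chr15:79030595-79031299, with a value of 5.38, had its summit 477 bp from the other end of H1f0 and 107 bp from an end of the neighbouring gene Gcat. H1f10 had a peak of 1826 bp at chr6:87980289-87982114 with a value of 4.48, rank 4967. Its summit lay 581 bp past the start and 480 bp from the other end of this short gene, so it was not within 500 bp of the start although the peak covered it.

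Of the H4 genes, which all encode the same core histone, H4c3, H4c8 and H4c12 had peaks of their own, and their values were close to each other. The H4c3 peak (chr13:23698297-23698545) had an enrichment value of 7.92, rank 214, with the summit 25 bp past the start. Hfe, the hemochromatosis gene that controls iron uptake, lay 3601 bp from that summit. The H4c8 peak (chr13:23530870-23531277) had a value of 7.76, rank 256, and a summit at 113 bp. The H4c12 peak (chr13:21750351-21750678) had a value of 7.69, rank 285, and a summit at 68 bp. All 3 values were in the top 5% of the list by rank. H4c6 had only the peak of H1f3 within 5 kb, and the other 8 H4 genes, among them H4c1, H4c2 and H4c4, had none.

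H3c6 was the only H3 gene with a peak of its own. That peak (chr13:23562260-23562466) was 207 bp wide, the narrowest at any member, with an enrichment value of 8.60, rank 81. Its summit was 6 bp past the start, the closest of all. H3c8 was reached only by the peak of H4c8, and the other 10 H3 genes had no summit within 5 kb.

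The core histone promoters are shown for the 4 genes with a peak of their own and for H4c11, whose sequence is close to that of H4c12 and which had no peak. Capitals are as above.
H4c3, chr13:23698459-23698708, minus strand: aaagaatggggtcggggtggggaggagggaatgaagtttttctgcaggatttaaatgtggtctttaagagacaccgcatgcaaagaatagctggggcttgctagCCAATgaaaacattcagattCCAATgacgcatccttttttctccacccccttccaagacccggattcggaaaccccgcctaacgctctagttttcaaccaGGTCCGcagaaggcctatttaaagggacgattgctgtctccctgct
H4c12, chr13:21750554-21750803, minus strand: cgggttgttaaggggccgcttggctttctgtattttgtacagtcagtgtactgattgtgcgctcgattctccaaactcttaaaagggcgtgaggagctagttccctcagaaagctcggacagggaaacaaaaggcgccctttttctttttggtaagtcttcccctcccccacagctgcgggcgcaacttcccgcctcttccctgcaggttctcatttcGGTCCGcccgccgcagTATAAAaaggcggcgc
H4c11, chr13:21734784-21735033, plus strand: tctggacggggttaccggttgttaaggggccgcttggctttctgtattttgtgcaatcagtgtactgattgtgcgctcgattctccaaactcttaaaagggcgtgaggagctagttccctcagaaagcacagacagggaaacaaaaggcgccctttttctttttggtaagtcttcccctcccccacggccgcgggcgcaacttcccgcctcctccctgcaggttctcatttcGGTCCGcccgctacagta
H4c8, chr13:23530794-23531043, plus strand: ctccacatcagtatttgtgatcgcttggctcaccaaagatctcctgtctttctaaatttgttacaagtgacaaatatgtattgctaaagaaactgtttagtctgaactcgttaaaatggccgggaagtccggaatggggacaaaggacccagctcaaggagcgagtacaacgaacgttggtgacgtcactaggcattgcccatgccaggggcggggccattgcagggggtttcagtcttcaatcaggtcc
H3c6, chr13:23562386-23562635, minus strand: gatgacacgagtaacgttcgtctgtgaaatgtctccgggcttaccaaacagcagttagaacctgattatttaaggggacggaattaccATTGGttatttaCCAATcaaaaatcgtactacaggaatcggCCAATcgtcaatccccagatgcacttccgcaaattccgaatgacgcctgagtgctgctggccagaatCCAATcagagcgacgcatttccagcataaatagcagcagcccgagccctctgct

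GGTCCG was present in 8 of 11 H4 promoters, against 8.41% of all, and in those of H4c3, H4c12 and H4c11. The H4c8 window, with a peak, held none of the 4 motifs in full. It ended in the letters ggtcc, so a GGTCCG running across its edge would not be counted. The TATA box letters were marked in H4c12 and not in H4c11. The H4c11 window ended where those letters begin in H4c12, so a match running across its edge would not be counted. The marks therefore do not show that H4c11 lacks the TATA box. Promoter windows numbered 63 for 62 members, since H2bc6 has a pair of start sites. CCAAT was present in all 17 H2A and all 15 H2B promoter windows, in 8 of 10 for H3, 7 of 10 for H1 and 3 of 11 for H4, against 35.4% of all windows. ATTTGCAT, the octamer known from H2B promoters, was found in 7 of 15 H2B windows, in 6 of 17 H2A windows and in none of H1, H3 and H4, against 1.58% of all. H2A and H2B genes often lie side by side and are transcribed away from each other, so that their windows overlap. AGGTCA, the half-site read by many nuclear receptors that SHP can bind, was found in 2 of 63 member windows and in 0 of the 8 windows with a summit within 500 bp, against 12.8% of all. CACGTG, the E-box palindrome, was found in none of the 63, against 6.63%. A match describes these letters in this window only, and searches covered both strands. The window ends at the start site and the 8 summits lay past it, so the bases under the summits were not searched.

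Short reads can be hard to place among near-identical gene copies, and the sources used here do not give how such reads were treated. In a global alignment of the 250 bases, H4c11 and H4c12 were identical in 227 of 264 columns (86%), with gap columns counted. Their windows are offset along the similar sequence, so gaps at the ends lower this share and the overlapping bases are more alike. Of the 36-base words in their 300-base promoter windows, 21.9% also occurred elsewhere in the promoter set. Among the 8 member windows with a summit within 500 bp of the start, H4c12 was the only one with such words. Among the other 55 windows, 12 had some and 10 had them in over 20%, namely those of H3c14, H3c15, H2ac18, H2ac19, H2ac23, H2ac24, H2bc23, H4c11, H4c17 and H4c18. In the other 43 windows, among them those of H1f1, H1f5, H4c1, H4c2, H4c4 and 12 of the 17 for H2A, no word was shared with another promoter position. The rest of the genome and the gene bodies were not compared, and the part of read mapping in the missing peaks was not tested.

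Most peaks at the chromosome 13 histone starts were narrower than the list's median and had higher enrichment values, with H1f3 below the median value. The 7 of them had a median width of 328 bp (207 to 820), against 978 bp for all 5775 peaks and 1004 bp for the 3384 peaks within 500 bp of any protein-coding start. Their median enrichment value was 7.76 (5.39 to 9.36), against 5.65 and 5.62. Their median −log10 p was 22.1, against 14.8 and 15.4. The highest deposited score, 1000, was held by 5 of the 7 and by 25.4% of all peaks. Except at H1f4, these peaks were at most 408 bp wide, a width that 339 peaks (5.87% of the list) did not exceed. Those 339 had a median enrichment value of 5.62, so narrow peaks in general were not stronger. The bound was read off the members, and no test was made. Over all 11 peaks near members the median enrichment value was 6.29, which is the value of the broad peak at H1f0, and the broad peak at H1f10 had 4.48.

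**Figure D3:**
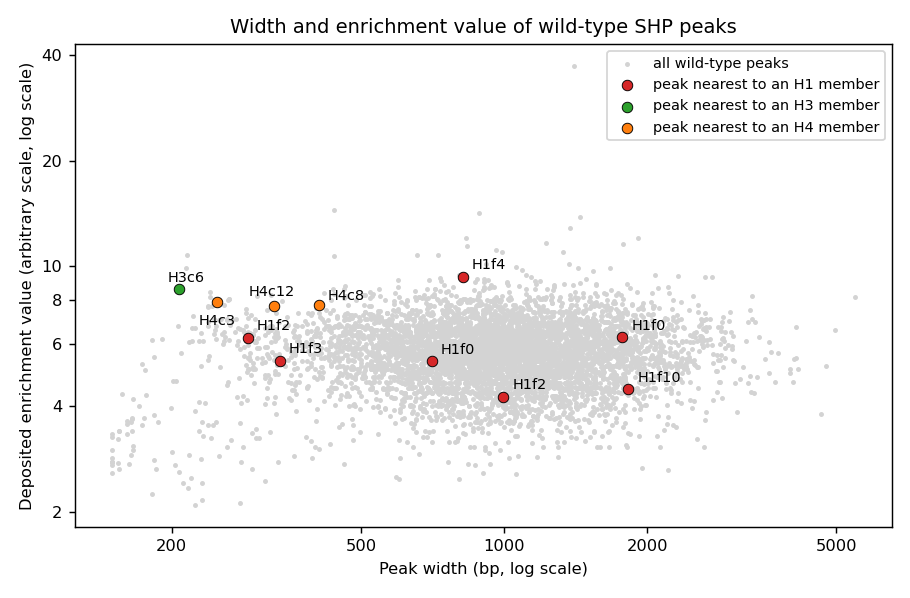
Deposited enrichment value against width of all 5775 wild-type SHP peaks (grey, both axes on log scales), with the 11 peaks within 5 kb of a histone gene coloured by the type of the nearest member. H3c6, H4c3, H4c8 and H4c12 lie at the upper left, with widths from 207 to 408 bp and values from 7.69 to 8.60, while H1f0 and H1f10 have wide peaks.

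The summits lay downstream of the start in all 8 members with a summit within 500 bp, from 6 to 183 bp into the gene (median 84 bp). Over all 3585 protein-coding genes with such a summit, 65.2% had it downstream, with a median offset of 57 bp.

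**Figure D4:**
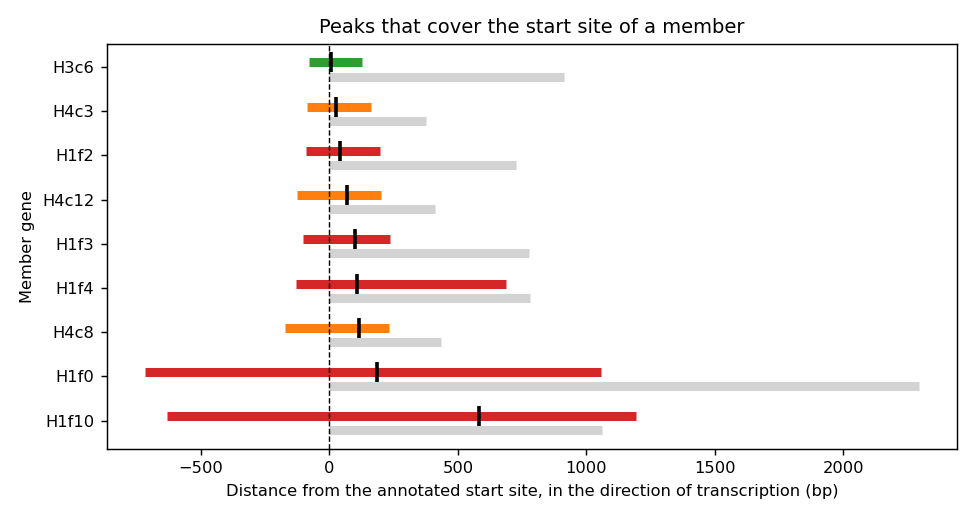
Extent of the 9 wild-type SHP peaks that cover the start site of a histone gene (coloured by type as in the maps, summit as a black tick) and of the gene (grey), in bp from the start in the direction of transcription. All summits lie to the right of 0, from 6 bp at H3c6 to 581 bp at H1f10.

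The knockout list, made with the same antibody, had no peak near a histone gene. Its 7 peaks were all on chromosomes that carry no member, while the wild-type list had 937 peaks on the 4 chromosomes that do. The lists were filtered in different ways, so this difference and the loss of SHP cannot be told apart from the filters. Of the knockout summits, 3 lay within 100 bp of a transfer RNA gene. The chromosome 13 span of the histone genes holds 77 transfer RNA genes, and the nearest of these to a peak at a member was 738 bp from the summit, at H4c8. The other such distances on chromosome 13 were 24713 bp or more.

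Genes that supply, process or replace these histones had summits at larger shares than the cluster genes (23.9%), though the exact intervals overlapped except for transcription and processing genes, and none of these differences was tested. The order turned with only the stronger peaks kept. At or above the 75th percentile of the enrichment value, 11 of 67 members had a summit, against 2 of 36 transcription and processing genes, 1 of 32 chaperones, 3 of 38 replication genes and 4 of 20 replication-independent histone genes, of which the last alone remained the larger share. At a −log10 p of at least the list's median, replication genes (7 of 38) were also below the members (15 of 67). The share of all protein-coding genes was 6.89% at the enrichment limit and 14.8% at the −log10 p limit. Of the replication-independent histone genes, 9 of 20 (45%, 95% exact interval 23.1 to 68.5) had a summit within 5 kb. The highest values were at H3f3b (8.19, summit 1593 bp away) and H3f3a (7.14), which both encode H3.3, and at H2az2 (7.22), which encodes a form of H2A.Z. The summits counted for H2aj and H3f4 lay 3974 and 1718 bp away. Both H1f0 and H1f10 also count here, and 4 genes belong to both lists. H2ax (6.93) and Macroh2a1 (6.12), H2A-type genes that are not members, had summits 4 and 19 bp from a gene end. H2az1 and Macroh2a2 had none within 5 kb. Of genes for histone transcription and messenger RNA processing, 20 of 36 (55.6%, 38.1 to 72.1) had a summit. Snrpb (6.77), a core protein of small nuclear ribonucleoproteins, Slbp (6.73), which binds the histone stem-loop, and Ccne1 (6.35), the cyclin E of S-phase entry, had the highest values. Of histone chaperones and import factors, 17 of 32 (53.1%, 34.7 to 70.9) had a summit, with the highest values at Supt16 (6.59), a subunit of FACT, Nap1l4 (6.42), a nucleosome assembly protein, and Dnajc9 (5.96, summit 4599 bp away), a histone co-chaperone. Of DNA replication genes, 15 of 38 (39.5%, 24.0 to 56.6) had a summit, among them Pold1 (7.54, summit 4625 bp away), a DNA polymerase subunit, and Cdk1 (6.60), the mitotic kinase. The share of all protein-coding genes was 26.4% as above. The median of the highest value per gene was 6.29 for replication-independent histone genes and 5.60, 5.44 and 5.41 in the other lists in this order, beside a median over the 11 member peaks of 6.29. Both values of 6.29 are that of the same H1f0 peak, since H1f0 belongs to both sets.

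Depth is unknown for both lists, and expression was not measured. Of 22 marker genes of intestinal and other cells, 6 had a summit (27.3%, close to the share of all genes). These were Cdh1, Epcam, Krt8, Vil1, Cdx2 and Ascl2, all epithelial. The other epithelial markers on the list, among them Fabp1, Fabp2, Alpi, Muc2, Lgr5, Krt18 and Hnf4a, had none, and neither had Ptprc, Acta2 or Alb. The markers therefore do not check the tissue or measure the cell types present.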

How the data were processed

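SHP immunoprecipitation was analysed from 1 deposited peak list for each genotype (wild type and SHP knockout), without the inputs. CASAVA 1.4, BWA and mm10 are listed in the submitters' processing notes. Peak calling, the role of the input, pooling of the 3 sets, read length and depth: not given in the sources used here, so no interval based on reads was made. By its name the wild-type list passed an IDR (irreproducible discovery rate) filter of 0.05, while the knockout list holds overlapping peaks. Both have 10 columns without a header. The deposited score, the deposited signal in column 7 (called the enrichment value, scale not stated), and the deposited −log10 p and −log10 q are the authors' own values for each peak and were used only to describe and rank peaks within a list.

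Summits were placed at column 2 plus column 10 plus 1 and set against RefSeq gene ends of GRCm38.p6 (same coordinates as mm10). The chromosome 13 and 3 members were called clusters, and members up to 100 kb apart a block. Shares carry 95% exact (Clopper-Pearson) intervals from scipy 1.17.1. No test between groups was possible with 1 list per genotype. Promoters were aligned with Biopython 1.88. All members with a summit within 5 kb are named, with up to 3 just outside and the 3 highest of each related list, except 1 gene that is not reported here. In that list of replication-independent genes 20 of 23 names were matched. Members and lists were chosen with earlier results of these data known. The start-site window, motifs, shared words, short-gene backgrounds and width bound were added after the data were seen. The assignment of summits to genes was tested on simulated data with planted peaks.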

Additional observations from a re-analysis of the deposited data

How the results depend on the processing

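Of 206 values under 13 alternative settings, 158 kept within 1.5 times the reported count, or within the spread of the member peaks (SD 1.70) for the median enrichment value, and 48 did not. No paired analysis was possible because there was 1 peak list per genotype and no replicate numbers. The number of members with a summit was 16 as reported, 9 within 1 kb or with the nearest gene only, 8 within 500 bp of a start site and 43 within 50 kb, where the shares of all protein-coding genes were 20.7%, 21.0%, 20.5% and 48.2%. By type, H2A and H2B counts were 0 and 0 within 1 kb, with the nearest gene only and at start sites, 0 and 1 within 2 kb, and 8 and 10 within 50 kb, and H2B reached 5 within 10 kb. H3 counted 1 within 1 or 2 kb, with the nearest gene only and at start sites, and 9 within 50 kb, where H4 counted 8. H1 fell to 2 with only peaks at or above the 75th percentile of the enrichment value, which also left 5 distinct peaks, although these served 11 members (16 reported) while the share of all genes was 6.89%. With replication-independent genes added there were 18 distinct peaks, 6 H2A genes and 5 H3 genes. By locus, the first chromosome 13 block had 1 member with a summit within 1 or 2 kb, with the nearest gene only and at start sites, and 12 within 50 kb. The third block had 6 within 1 kb, with the nearest gene only and at start sites, and 29 within 50 kb.

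Among related lists, the 32 chaperones counted 11 within 1 or 2 kb, 28 within 50 kb and 8 with the nearest gene only. They counted 10 and 1 under the −log10 p (median) and enrichment value (75th percentile) thresholds. The 36 transcription and processing genes counted 13 with the nearest gene only and 13 and 2 under those thresholds. The 38 replication genes counted 23 within 50 kb and 7 and 3 under those thresholds, and the 20 replication-independent histone genes 4 under the second. The shares of all protein-coding genes were 20.7% within 1 kb, 23.1% within 2 kb and 48.2% within 50 kb. They were 21.0% with the nearest gene only, and 14.8% and 6.89% under those thresholds. The median enrichment value of member peaks, 6.29, stayed within the SD of 1.70 in every setting run. It went from 6.01 within 50 kb to 7.92 at the 75th percentile of the enrichment value. That limit is wide, since the median of all peaks, 5.65, also lies within it. Knockout peaks near members stayed at 0 within 50 kb. Start sites and older symbols were added after the data were seen. Depth being unknown, a missing peak cannot be read as a lack of binding.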

Other observations

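In the chromosome 13 span of the histone genes (chr13:21715711-23934913), peaks at other genes were scarce. It holds 50 protein-coding genes that are not histone genes, of which 36 are vomeronasal receptors of the Vmn1r family, which serve pheromone sensing. Of the 50, Hfe alone had a summit within 5 kb, and that was the peak at H4c3. The share was 26.4% over all protein-coding genes and 6.08% over those of at most 2 kb. Most of the 50 belong to a single receptor family, so they do not stand for protein-coding genes at large. Of the 10 wild-type summits in the span, 8 were at members. The other peaks were at chr13:23438013-23438250, with an enrichment value of 6.93 and the summit 32 bp from the transfer RNA gene n-TIaat8, and at chr13:23445593-23446009, where the enrichment value was 5.01 and n-TVcac9 lay 294 bp from the summit. Both lay at least 85196 bp from a histone gene.

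Another 4 histone genes carry Hist names only among their older symbols and were not counted as members. H4f16 (Hist4h4), on chromosome 6, had a peak at chr6:136803629-136804414 with an enrichment value of 6.11, rank 1973. Its summit lay 157 bp past the start, inside the gene, and the same peak lay within 5 kb of H2aj. H2aw (Hist3h2a) was 4801 bp from a summit with a value of 5.54, and H2bu2 (Hist3h2ba) and H4bc24 (Hist1h2br) had none within 5 kb.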
